A study of Mus musculus with 4 samples.

Results

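Open chromatin was mapped by ATAC-seq, in which a transposase inserts adapters into accessible DNA, at 7 mouse genes that act in meiotic crossing over: Msh4, Msh5, Rnf212, Ccnb1ip1, Hfm1, Mlh3 and Tex11. They were chosen by symbol and make up 7 of 21887 protein-coding genes of the GRCm38 (mm10) annotation on chromosomes 1 to 19, X and Y. On autosomes lay Msh4 (chr3:153857141-153906138), Msh5 (chr17:35028605-35046997), Rnf212 (chr5:108728105-108775067), Ccnb1ip1 (chr14:50789249-50795728), Hfm1 (chr5:106840193-106926712) and Mlh3 (chr12:85234466-85270647), and Tex11 lay at chrX:100838648-101059639. Exons and introns were not analysed here. For each gene, every peak inside it or within 1 kb of either end was collected. The cells were pachytene spermatocytes isolated from testis and exposed to BMH-21, which blocks RNA polymerase I, at 2.5 µM for 12 h. The mock group received the solvent DMSO. There were 2 libraries per group, called biological replicates by the submitters, of about 10000 cells each. For strain, age and the number of animals the labels give no entry, so the spread between replicates may be partly technical. The comparison of the groups asks how blocking RNA polymerase I changes accessibility across the genome.

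Meiotic crossovers form when a double-strand break is repaired from the homologous chromosome. Strand-exchange intermediates are stabilised by MutSγ, the dimer of MSH4 and MSH5, and by the helicase HFM1 (MER3), and the chosen sites are cut by MutLγ, an endonuclease that contains MLH3. RNF212 and HEI10, the product of Ccnb1ip1, are thought to promote SUMO and ubiquitin marking and to limit which sites become crossovers, and TEX11 (ZIP4) links recombination to synapsis. All of these act in spermatocytes at the zygotene and pachytene stages, and loss of any of them in mice is known to impair crossing over. Tex11 is the only member on X, the chromosome that is silenced in the XY body at this stage.

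Each library had its own peak list. The number of peaks was 109230 and 117905 for mock but 51234 and 55459 for BMH-21. The genome-wide background recovered from the peak statistics, which scales with the reads used, lay between 4.115 and 4.54 fragments in the 4 libraries, and the design text states at least 50000000 reads per sample. With 2 libraries against 2, the exact permutation test over the 3 splits cannot give a two-sided p below 0.33, so no difference here could pass a threshold of 0.05. All 6 markers of pachytene spermatocytes had a gene-end peak in all 4 libraries, among them Sycp3, Mybl1 and Piwil1. Of 4 leukocyte markers, 3 had one in each mock library and 0 in either BMH-21 library. Of 4 Sertoli cell markers, 4 had one in each mock library, and 3 and 2 with BMH-21. Of 5 spermatogonial markers the counts were 4 in each mock library, then 2 and 3 with BMH-21, of 3 Leydig markers 2 in each mock and 1 in each BMH-21 library, and of 3 round spermatid markers 1 in each mock and 0 in the BMH-21 libraries. Stra8, Tnp1, Acrv1, Cyp17a1 and Ptprc had no gene-end peak in any library. Over all protein-coding genes, 57.9% had a gene-end peak in all 4 libraries. Of those with one in both mock libraries, 11.5% had none in either BMH-21 library. The part of other cells in the results below was not tested. In bulk libraries, fewer cells with an open site and less opening per cell cannot be told apart.

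The 250 bases upstream of the annotated transcription start are shown for the 5 members whose RefSeq promoter overlaps a peak in all 4 libraries, because they hold or border the start peaks described below. All 250 bases lay under the start peak in every library for Msh5, Rnf212 and Hfm1. For Mlh3 158 to 184 of them did, and for Ccnb1ip1 156 in the first mock library and all in the others. They are RefSeq sequences of the GRCm38.p6 build, all from the minus strand and printed 5′ to 3′. They lie at chr17:35046623-35046872 (Msh5), chr5:108775028-108775277 (Rnf212), chr14:50795729-50795978 (Ccnb1ip1), chr5:106925891-106926140 (Hfm1) and chr12:85270600-85270849 (Mlh3). Capitals mark matches, on either strand, to any of 8 motifs: AACNGTT (MYB), TTTCCCGC (E2F), CCAAT (NFY), TGACGTCA (CRE), CCGGAAG (ETS), GCCCCGCCC (SP), GTTGCCATG (RFX) and CNCCTCAG (STRA8).
Msh5: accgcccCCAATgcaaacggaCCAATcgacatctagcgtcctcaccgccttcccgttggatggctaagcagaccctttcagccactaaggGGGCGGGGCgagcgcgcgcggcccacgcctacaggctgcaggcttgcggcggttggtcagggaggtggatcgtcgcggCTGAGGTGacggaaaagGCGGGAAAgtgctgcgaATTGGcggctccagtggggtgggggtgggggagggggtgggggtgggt
Rnf212: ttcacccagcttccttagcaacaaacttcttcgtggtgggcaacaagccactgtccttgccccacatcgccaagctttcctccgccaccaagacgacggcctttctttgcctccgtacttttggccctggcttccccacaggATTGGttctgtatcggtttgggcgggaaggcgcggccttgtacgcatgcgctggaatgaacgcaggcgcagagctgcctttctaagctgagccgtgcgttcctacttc
Ccnb1ip1: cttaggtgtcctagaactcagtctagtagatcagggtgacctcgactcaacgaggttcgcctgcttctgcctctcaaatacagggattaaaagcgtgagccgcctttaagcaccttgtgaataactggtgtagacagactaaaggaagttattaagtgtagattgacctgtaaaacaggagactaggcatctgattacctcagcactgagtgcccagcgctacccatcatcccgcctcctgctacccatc
Hfm1: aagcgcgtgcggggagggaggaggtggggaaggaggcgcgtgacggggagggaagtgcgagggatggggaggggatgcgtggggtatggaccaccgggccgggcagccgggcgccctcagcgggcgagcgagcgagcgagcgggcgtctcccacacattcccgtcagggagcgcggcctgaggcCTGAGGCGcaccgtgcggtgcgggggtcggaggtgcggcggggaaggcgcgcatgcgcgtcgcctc
Mlh3: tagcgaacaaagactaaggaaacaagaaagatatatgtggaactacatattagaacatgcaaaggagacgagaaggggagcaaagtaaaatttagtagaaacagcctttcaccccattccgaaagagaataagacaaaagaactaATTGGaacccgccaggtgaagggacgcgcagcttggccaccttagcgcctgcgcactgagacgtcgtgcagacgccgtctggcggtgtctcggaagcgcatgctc

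The Msh5 stretch held 3 CCAAT letters, 1 SP, 1 E2F and 1 STRA8 match. Rnf212 and Mlh3 held 1 CCAAT match each, which begins 108 and 105 bases before the start. Hfm1 held 1 STRA8 match, 66 bases before the start, and Ccnb1ip1 held no match to any of the 8. Over 17486 protein-coding promoters of the same length, 36.3% held CCAAT, 14.1% the SP letters, 6.69% the STRA8 letters and 1.22% the E2F letters. The MYB, CRE, ETS and RFX letters, present in 3.36, 2.01, 9.13 and 0.509% of promoters, occurred in none of the 5 windows, which says only that these letters are not in them. Hfm1 and Msh5 were the most CpG-rich, with 34 and 22 CpG in 250 bases, Rnf212 and Mlh3 had 16 and 15, and Ccnb1ip1 had 7, against a median of 10 over all promoters. The RefSeq start of Msh4 lies 1247 bp inside the outer end of the gene, and no library had a peak over its promoter window. The Msh4 peak lay nearer the outer end. Tex11 was not matched in the promoter table.

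Every one of the 7 genes had a peak at a gene end in all 4 libraries. Over all protein-coding genes this was the case for 57.9%, and of those where both mock libraries held such a peak 11.5% had none after BMH-21. At the 6 autosomal members the kept peak was the one at the start of the gene (here, the high-coordinate end, where these minus-strand genes begin). The groups differed more in the peaks between the ends. Inside the 6 autosomal genes 10 and 9 peaks were called under mock conditions, but 1 and 3 after BMH-21, means of 9.5 ± 0.707 and 2 ± 1.41 (SD, n = 2 each; exact permutation p = 0.33). At the ends the counts were 7 and 7 against 6 and 6. The total over these genes was 17 and 16 under mock conditions, and 7 and 9 with BMH-21, a ratio of means of 0.485 (exact permutation p = 0.33). Whole lists were shorter too, with 109230 and 117905 peaks against 51234 and 55459, so a lower count is not particular to these genes.

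**Figure D1:**
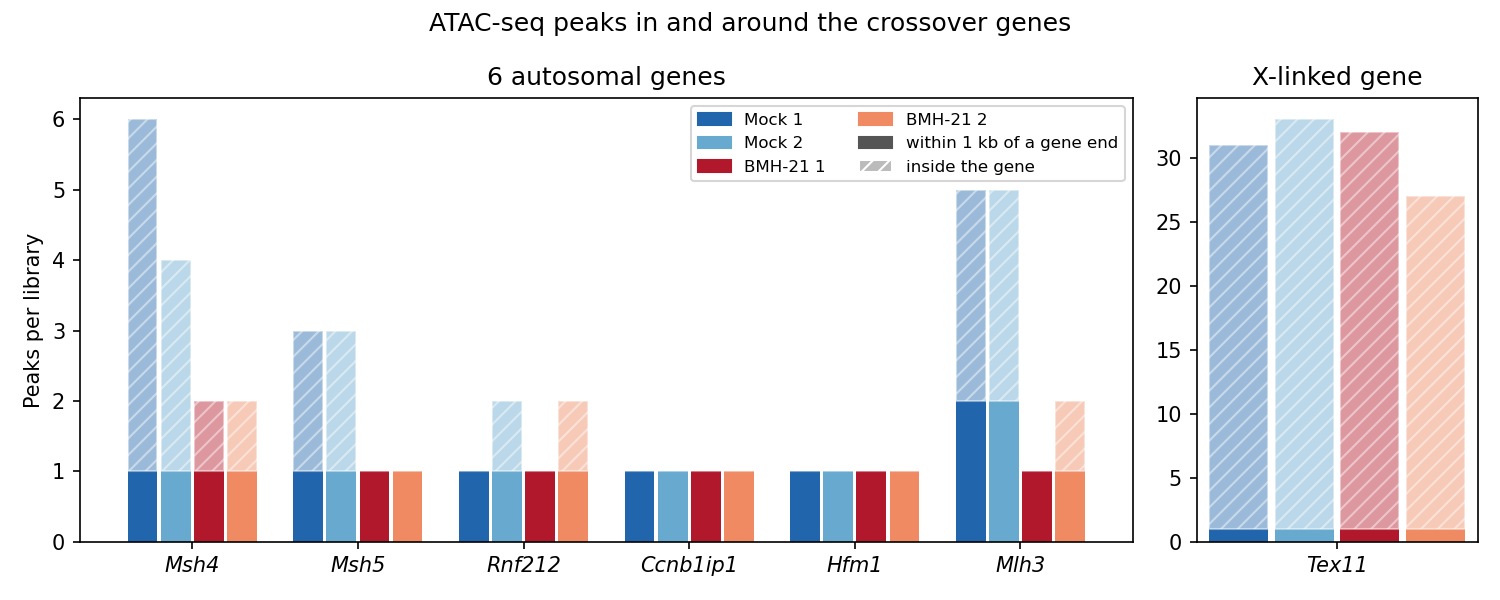
Number of peaks (vertical axis, peaks per library) in and around each gene in the 2 mock and 2 BMH-21 libraries; solid parts lie within 1 kb of a gene end, hatched parts inside the gene, and the right panel has its own scale. The autosomal genes keep 1 start peak each in every library, and the hatched parts of Msh4, Msh5 and Mlh3 are lower in both BMH-21 libraries, while Tex11 holds 27 to 33 peaks throughout.

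The difference in inside peaks lay in 3 of the 6 autosomal genes. Msh4, which encodes a MutSγ subunit, held 6 and 4 peaks for mock, against 2 and 2 for BMH-21. Msh5, its partner, held 3 and 3 against 1 and 1. Mlh3, of MutLγ, held 5 and 5 against 1 and 2. These counts include gene-end peaks: 1 per library at Msh4 and Msh5, and at Mlh3 2 in each mock and 1 in each BMH-21 library. In each of the 3 the groups did not overlap, as was also the case, in the direction of fewer peaks, for 56.3% of autosomal protein-coding genes with any peak. Rnf212 held 1 and 2 peaks without and 1 and 2 with BMH-21, and Ccnb1ip1 and Hfm1 held 1 in each. Hfm1, a gene of 86.5 kb, thus had no peak away from its start in any library. With lists limited to the strongest 51234 peaks each, Msh4 held 4 and 2 (means) with overlapping groups, and Msh5 held 1.5 and 1. Mlh3 held 2.5 and 1 (exact permutation p = 0.33), and the total over the 6 genes was 11.5 against 7.5.

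Merging the peaks of the 4 libraries by any overlap gave 19 regions in the autosomal members. Of the 14 present in both mock libraries, 8 were in neither BMH-21 library (mock-only; 57.1%, exact binomial 95% interval 28.9 to 82.3%, for counting error only). All 7 regions inside the genes that both mock libraries held were mock-only, where 75.6% of autosomal regions inside protein-coding genes were. At the gene ends 1 of 7 was mock-only, where 26.5% of autosomal regions at protein-coding gene ends were. The 7 regions share 3 genes, so they are not separate replicates. Both shares rest on few regions, and the share for all regions was 2 of 8 (25%) with lists of equal length.

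In Msh4 the strongest inside region lay near the far end of the gene, at chr3:153858465-153859353, with fold enrichments of 8.60 and 9.79 over the local background in mock. A second one followed at chr3:153859690-153860015, with folds of 5.96 and 3.89. Both were absent after BMH-21. A weaker region at chr3:153864938-153865270 behaved differently: it was called in the first mock library (fold 5.05) and in both BMH-21 libraries (4.40 and 3.32), but not in the second mock library. It was the only inside region of an autosomal member held by both BMH-21 libraries. The 2 other regions of the gene, at chr3:153869053-153869330 and chr3:153900671-153900872, were each called in 1 mock library only.

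In Msh5 the mock-only peaks formed a pair inside the gene, at chr17:35031226-35031770 (folds 4.10 and 3.17) and chr17:35031918-35032207 (folds 4.68 and 3.39). In Mlh3 there were 3 inside regions, at chr12:85241816-85242385 (5.63 and 4.12), chr12:85249672-85249998 (6.14 and 6.02) and chr12:85256119-85256661 (4.33 and 4.14), and a weak one beyond the far end at chr12:85233766-85234076 (2.73 and 3.69). All 4 were mock-only. The second BMH-21 library alone had a peak at chr12:85245369-85245583, with a fold of 2.49. In Rnf212 the single inside region, at chr5:108733471-108733737, was held by the second library of each group, with folds of 4.70 and 4.69. The fold is the authors' caller's value for each peak. It is relative to the same library only and is used here to describe and rank.

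**Figure D2:**
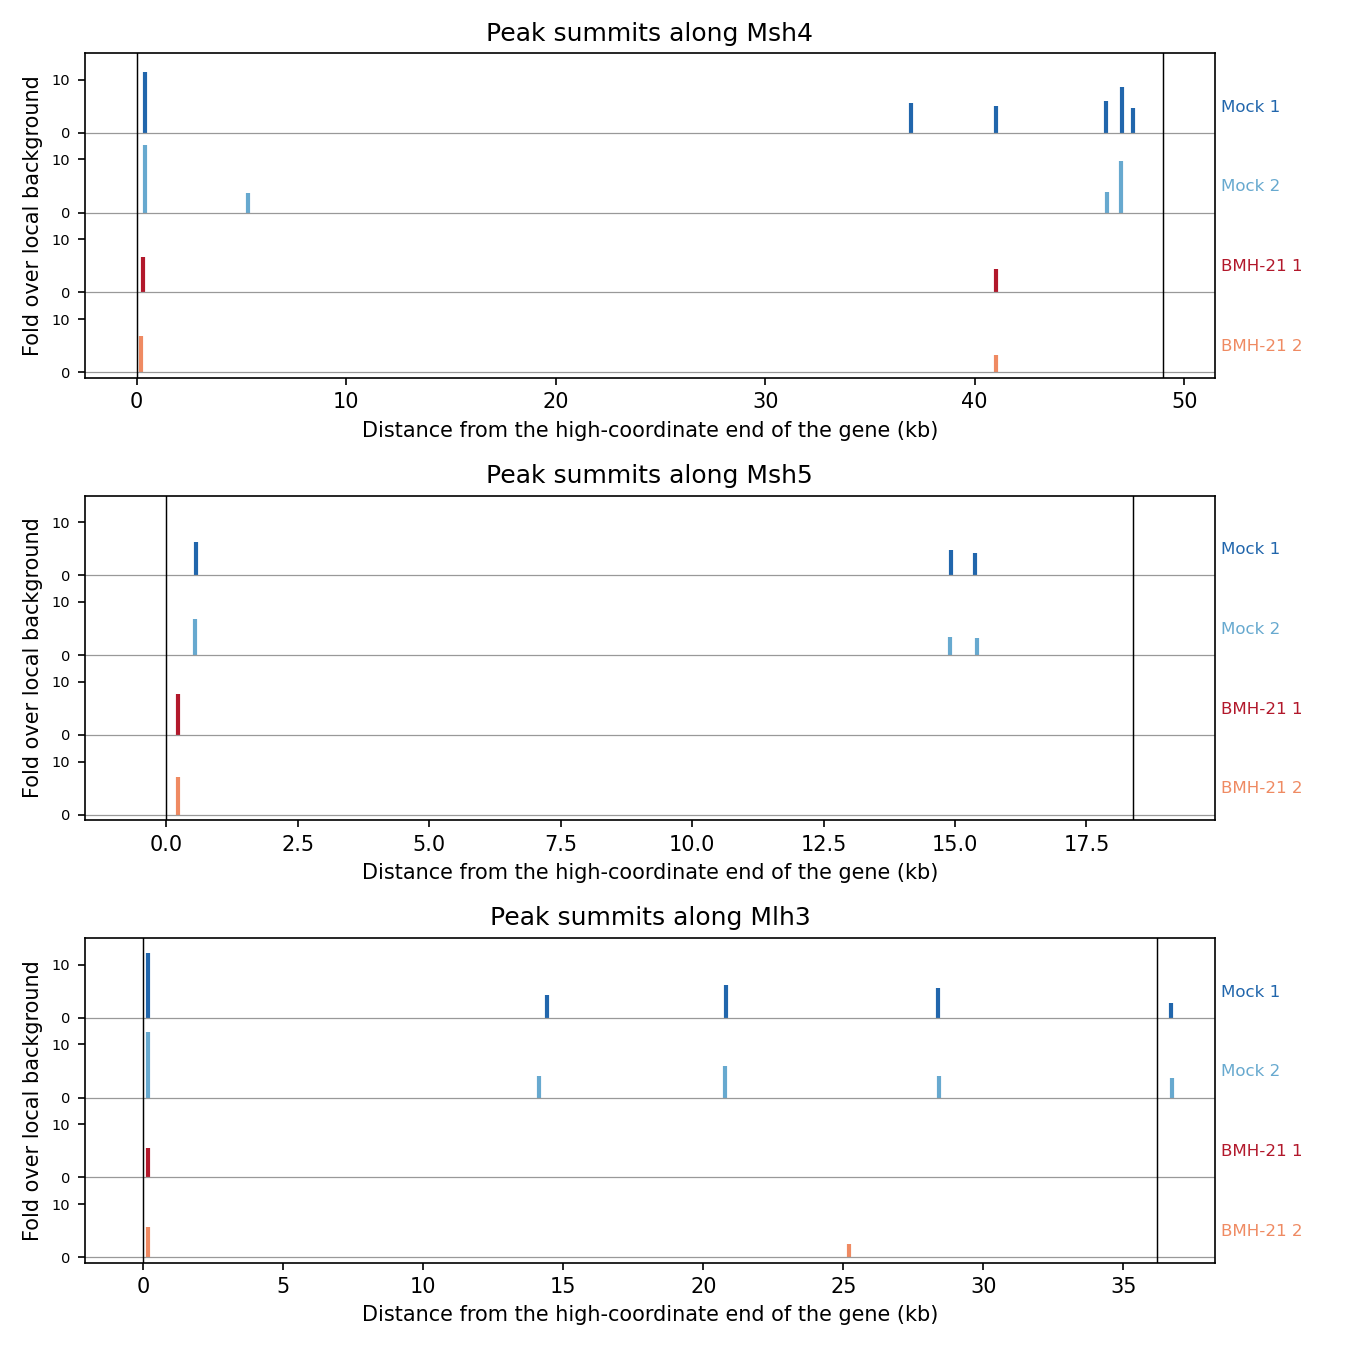
Peak summits along Msh4, Msh5 and Mlh3, with distance from the high-coordinate end of the gene in kb on the horizontal axis and the fold over local background as the height of each line, in a row per library; vertical black lines mark the 2 gene ends. The line at the start stands in all 4 rows, and most others are seen in the mock rows only.

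The start peaks themselves did not all behave alike. By fold, the order among the 6 autosomal genes turned over. Mlh3 and Msh4 held the first 2 places in both mock libraries and the last 2 in both BMH-21 libraries, whereas Rnf212 and Hfm1 took the first 2 places after BMH-21. The values for Mlh3 were 12.1 and 12.3 under mock conditions, and 5.50 and 5.65 with BMH-21. Those for Msh4 were 11.4 and 12.7 against 6.68 and 6.85. For both genes the groups were far apart compared with the spread within them (exact permutation p = 0.33 each), and a lower fold in both BMH-21 libraries was found for 50.3% of the 12125 autosomal protein-coding genes with a gene-end peak in all 4.

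The other 4 genes stayed closer to their mock values. Rnf212 had folds of 11.0 and 11.6 for mock, against 10.1 and 10.2 for BMH-21, and Hfm1 10.1 and 11.7 against 9.86 and 9.47. In both genes the BMH-21 values were the lower ones. Msh5 and Ccnb1ip1 went the other way, from 6.22 and 6.82 to 7.76 and 7.16, and from 5.79 and 6.96 to 6.98 and 7.80. A higher fold in both BMH-21 libraries was found for 31.9% of the same genes. Between the strongest 51234 peaks of each list, the rank of the Mlh3 start peak was 1080 and 1280 for mock, against 16816 and 18086 for BMH-21, and that of Msh4 was 1740 and 1014 against 10812 and 11399. Msh5 ranked 21694 and 18712 against 7062 and 10299, and Ccnb1ip1 25851 and 17560 against 9561 and 8089. As percentiles within the whole lists, the groups overlapped for these 2 genes. The values were 80.1 and 84.1 against 86.2 and 81.4 for Msh5, and 76.3 and 84.9 against 81.3 and 85.4 for Ccnb1ip1. For Mlh3 and Msh4 the percentiles did not overlap. A weaker rank in both BMH-21 lists was found for 36.1% of autosomal protein-coding genes with a gene-end peak in all 4 equal lists, and a stronger one for 44%.

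The fold is a quotient, and its 2 parts were recovered by combining fold and p. At Mlh3 the fragment pileup at the summit was 102 and 106 without and 116 and 111 with BMH-21, so it was not lower after treatment. The local background of the same peak was 7.50 and 7.68 fragments under mock conditions, and 20.3 and 18.8 with BMH-21, a ratio of means of 2.58. Of the 12125 autosomal genes, 64 (0.528%), Mlh3 included, had a ratio at least as high, and the median was 0.974. The lower fold of Mlh3 thus went with a higher background around the start, not with fewer fragments at the summit. Ordered by pileup in place of fold, Mlh3 held place 3 of 6 in both mock and place 2 in both BMH-21 libraries. No other peak summit lay within 8.51 kb of it in the mock libraries, or within 9.95 kb in the BMH-21 libraries. The nearest peak in the BMH-21 libraries also had a high local background, of 17.8 and 17.0 fragments. In the mock libraries the nearest peak was a different one, with 11.7 and 12.1.

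At Msh4 both parts separated the groups: the pileup was 137 and 143 for mock, against 110 and 100 for BMH-21, and the local background 11.1 and 10.3 against 15.6 and 13.7. Msh5, Rnf212 and Ccnb1ip1 had more fragments at the summit after treatment. Their pileups were 86 and 98 against 149 and 140 for Msh5, 75 and 80 against 106 and 99 for Rnf212, and 35 and 36 against 61 and 65 for Ccnb1ip1. At Hfm1 they overlapped, with 109 and 123 against 101 and 109. Pileups were higher in both BMH-21 libraries at 4 of the 6 genes (Mlh3 included) and lower at 1. Over all autosomal genes the shares were 30.6% and 51%. The local background was higher in both BMH-21 libraries at 5 of the 6, all but Hfm1, against 42.6% of the autosomal genes, and lower at none, against 46.3%. Each of these separations has an exact permutation p of 0.33, and neither quantity is normalised between libraries, although dividing by the genome-wide background of each library left the direction for each of the 6 pileups as it was.

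**Figure D3:**
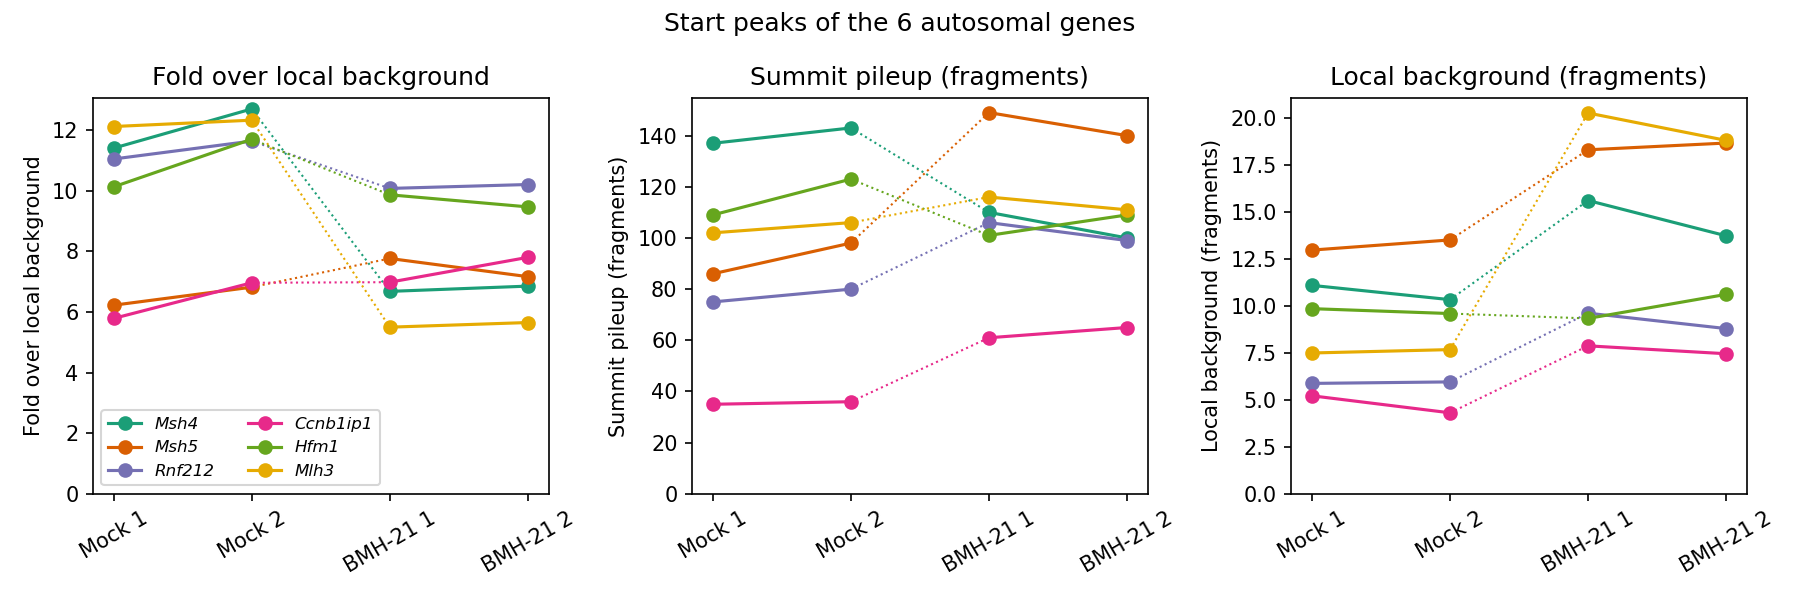
Fold over local background (left), fragment pileup at the summit (middle) and local background in fragments (right) of the start peak of each autosomal gene in the 4 libraries; lines, solid within a group and dotted between groups, only join the points of a gene and do not pair libraries. Mlh3 and Msh4 are the highest in the left panel in both mock and the lowest in both BMH-21 libraries, while the Mlh3 pileup stays between 102 and 116 and its background goes from 7.50 and 7.68 to 20.3 and 18.8.

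The start peaks also differed in where their summits lay. At Msh5 the summit was 556 and 536 bp inside the outer end of the gene in mock, downstream of the RefSeq start, and 224 and 226 bp inside it in BMH-21 libraries, upstream of that start. The difference of the means was -321 bp, where negative values are upstream, and the peak was narrower, 1109 and 1128 bp against 897 and 923 bp. At Hfm1 the summit lay at 817 and 692 bp in mock and at 466 bp in both BMH-21 libraries, a mean difference of -288.5 bp, and the peak was slightly wider, 955 and 891 bp against 963 and 993 bp. A narrower peak in both BMH-21 libraries was found at 44.1% and a wider one at 25.2% of autosomal promoters that overlapped a peak in all 4 libraries. Msh4 had summits at 391 and 393 bp for mock, against 309 and 220 bp for BMH-21. In these 3 genes the groups did not overlap (exact permutation p = 0.33 each).

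The remaining summits did not separate the groups. Those of Mlh3 stayed within 158 to 170 bp of the outer end in all 4 libraries, and its peak, the narrowest of the 6, measured 475 to 500 bp. Rnf212 had summits at 24 and 95 bp for mock, against 89 and 95 bp for BMH-21. For Ccnb1ip1 the first mock library stood apart, with a summit 308 bp inside the gene, while the other 3 lay 7 to 16 bp outside it. A summit further upstream in both BMH-21 libraries was seen at 56.3% of the 8842 autosomal promoters that overlapped a peak in all 4 libraries, and one further downstream at 16%. The median difference there was -83.5 bp, with quartiles of -208 and 4.5 bp, so those of Msh5 and Hfm1 were beyond the upstream quartile. Of the members among these promoters, only Msh5 and Hfm1 had summits further upstream in both BMH-21 libraries. Msh4 is not among them, because no library had a peak over its promoter window.

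**Figure D4:**
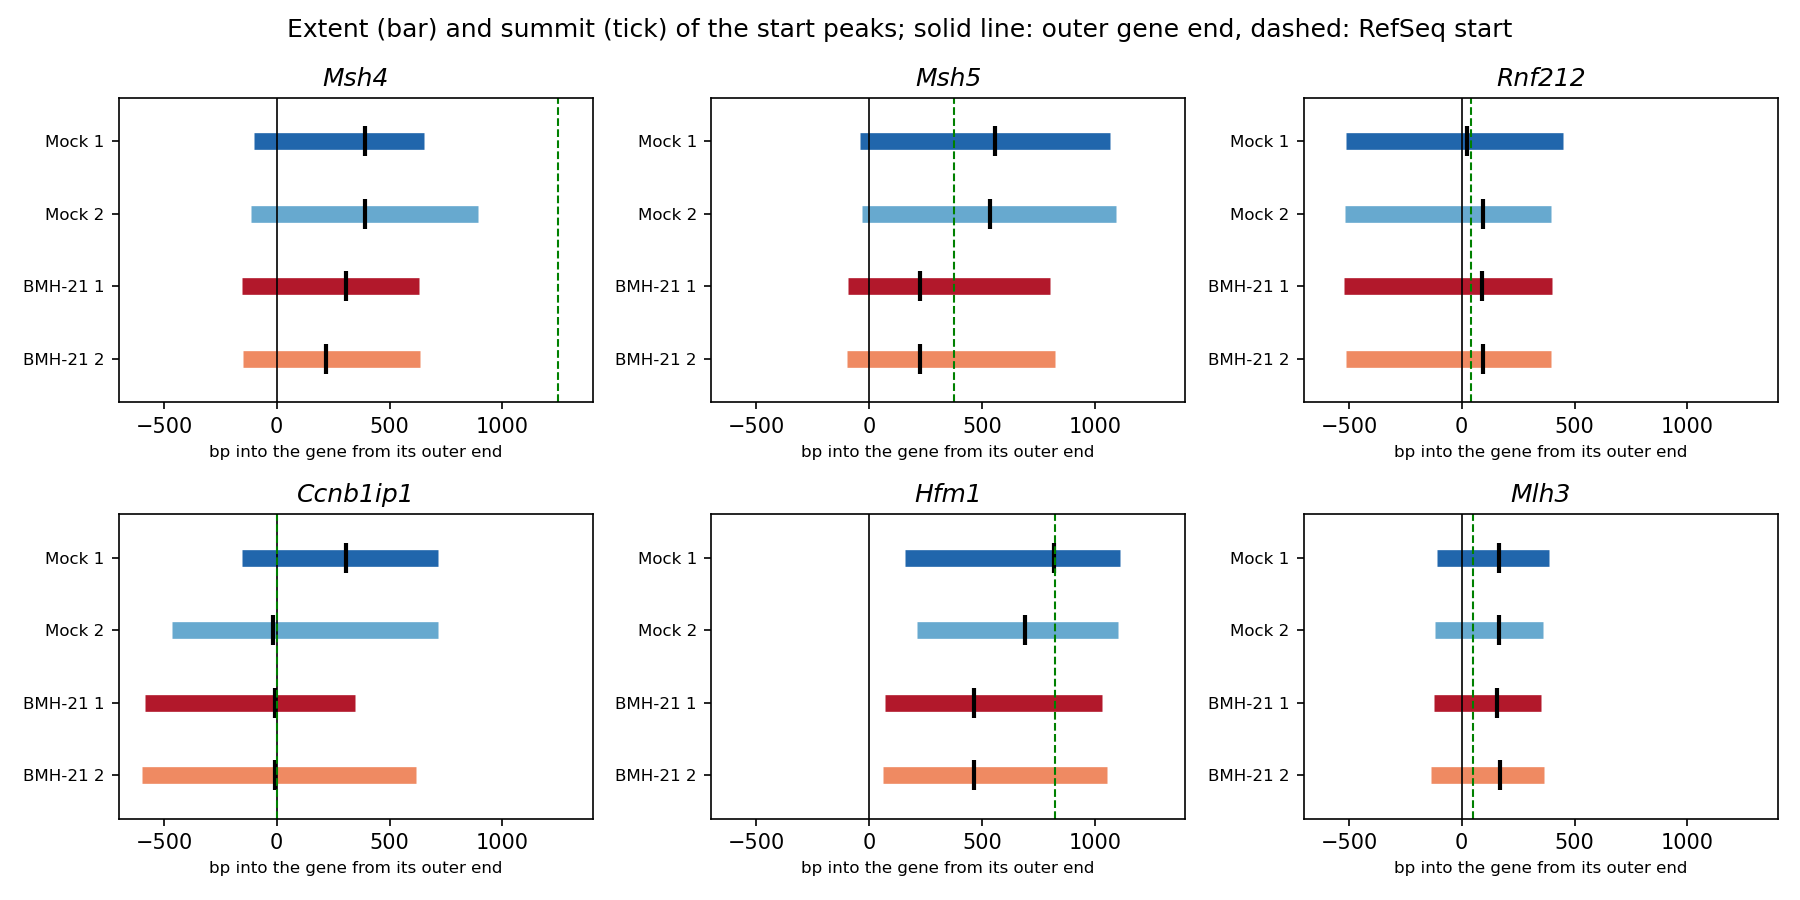
Extent (bar) and summit (black tick) of the start peak of each autosomal gene in the 4 libraries, in bp into the gene from its outer end (solid line); the dashed line is the RefSeq start. The ticks of Msh4, Msh5 and Hfm1 lie further left (upstream) in both BMH-21 libraries, and those of Mlh3 stay in place.

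Tex11, on X, held most of the peaks of the 7 genes in every library, nearly all of them inside the gene. The gene spans 221 kb and held 31 and 33 peaks without and 32 and 27 with BMH-21, means of 32 ± 1.41 and 29.5 ± 3.54 (SD, n = 2 each; exact permutation p = 0.67), with overlapping groups. Fewer peaks in both BMH-21 libraries were found for 35% of X protein-coding genes with any peak. In each library Tex11 had 1 peak at a gene end, and the rest lay inside. Its share of the peaks of all 7 genes was 64.6 and 67.3% under mock conditions, and 82.1 and 75% with BMH-21 (exact permutation p = 0.33). This share sets the response of Tex11 against that of the autosomal members, and its groups did not overlap. The same holds for X as a whole, which held 17.3% of all peaks in each mock library. In the BMH-21 libraries X held 31.4 and 30.8%, so the higher share is not particular to Tex11. The Tex11 count depended on the library and on the threshold. Without the second BMH-21 library the mean number of Tex11 peaks was 32 in both groups, and without the first it was 32 against 27. With peaks of −log10 q of at least 5 the means were 30.5 for mock and 23 for BMH-21, with groups that did not overlap (exact permutation p = 0.33). With lists of equal length Tex11 had more peaks after BMH-21, 28.5 against 22.5.

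Of 43 regions in Tex11, 27 were present in both mock libraries and 3 of these were mock-only (11.1%, exact binomial 95% interval 2.35 to 29.2%). On X as a whole the share was 25.8% of regions inside protein-coding genes and 15.7% of those at their ends. The share in Tex11 was between 9.68 and 22.2% when any 1 library was left out. It was 22.2% without the first and 18.5% without the second BMH-21 library, 18.2% without the first mock library, and 24% with peaks of −log10 q of at least 5. A further 2 regions were BMH-21-only, 19 were in all 4 libraries and 19 showed other combinations, of which 7 were called in 1 library only. Among 140 X genes with a mean of at least 10 mock peaks, the ratio of BMH-21 to mock peaks had a median of 0.799, and Tex11 stood at 0.922, with 39 genes above it. Among 1322 autosomal genes with as many peaks the median was 0.263. Both sets were kept by their mock counts alone, which can lower these medians, so the place of Tex11 among them is descriptive only.

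The regions of Tex11 were spread through the gene. Its peaks had a median fold of 5.42 and 5.65 in the mock libraries, above the medians of 4.33 and 4.35 over all peaks of those lists. After BMH-21 the median was 3.83 in both libraries, below the list medians of 4.53 and 4.61. The inside peaks had a median width of 288 to 325 bp, and the 10 and 9 inside peaks of the autosomal genes in mock had one of 306 and 263 bp. In both mock libraries together, by mean percentile within the list, the strongest inside region was chrX:100956836-100957427, named after its values were seen, with folds of 10.0 and 8.88 for mock, against 3.95 and 3.49 for BMH-21. The region at chrX:100931418-100932273 had folds of 8.12 and 9.79 against 4.61 and 4.51. At chrX:101017931-101018515, which lay 41.4 kb from the high-coordinate end, the groups overlapped, with 7.76 and 6.40 against 5.50 and 6.45. The region at chrX:100865182-100865670 (folds 5.42 and 6.02) was mock-only. Among the 18 inside regions held by all 4 libraries, the fold was lower in both BMH-21 libraries at 15 (83.3%) and higher at 1, against 83.2 and 2.02% of 1835 such regions on X. The median fold of the 18 was 5.65 and 5.97 without and 3.95 and 3.87 with BMH-21. The local background was higher at 16 of the 18 (88.9%) and lower at none, against 77 and 1.31% on X. The pileup was lower at 10 (55.6%) and higher at 5 (27.8%), against 54.1 and 11%. Apart from this last share, Tex11 was close to the rest of X in these measures.

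The gene-end peak of Tex11 went against the inside regions. It lay at the high-coordinate end of the gene, at chrX:101059517-101059910 over the 4 libraries, and also covers the first bases of the annotated pseudogene Gm9078. Its pileup was 34 and 43 fragments without and 85 and 89 with BMH-21, a ratio of means of 2.26, and its fold 5.57 and 6.55 against 8.14 and 7.61. The groups did not overlap in either (exact permutation p = 0.33 each). On X, 19.1% of 551 protein-coding genes with a gene-end peak in all 4 libraries had a higher pileup in both BMH-21 libraries (55.9% a lower one) and 4.36% a higher fold (83.1% a lower one). The local background of the Tex11 end peak was 5.28 and 5.72 fragments against 9.56 and 10.8, and 76% of these genes also had a higher one in both BMH-21 libraries, 10.5% a lower one. A pileup ratio at least as high was found for 0.363% of them, a share that includes Tex11 itself.

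**Figure D5:**
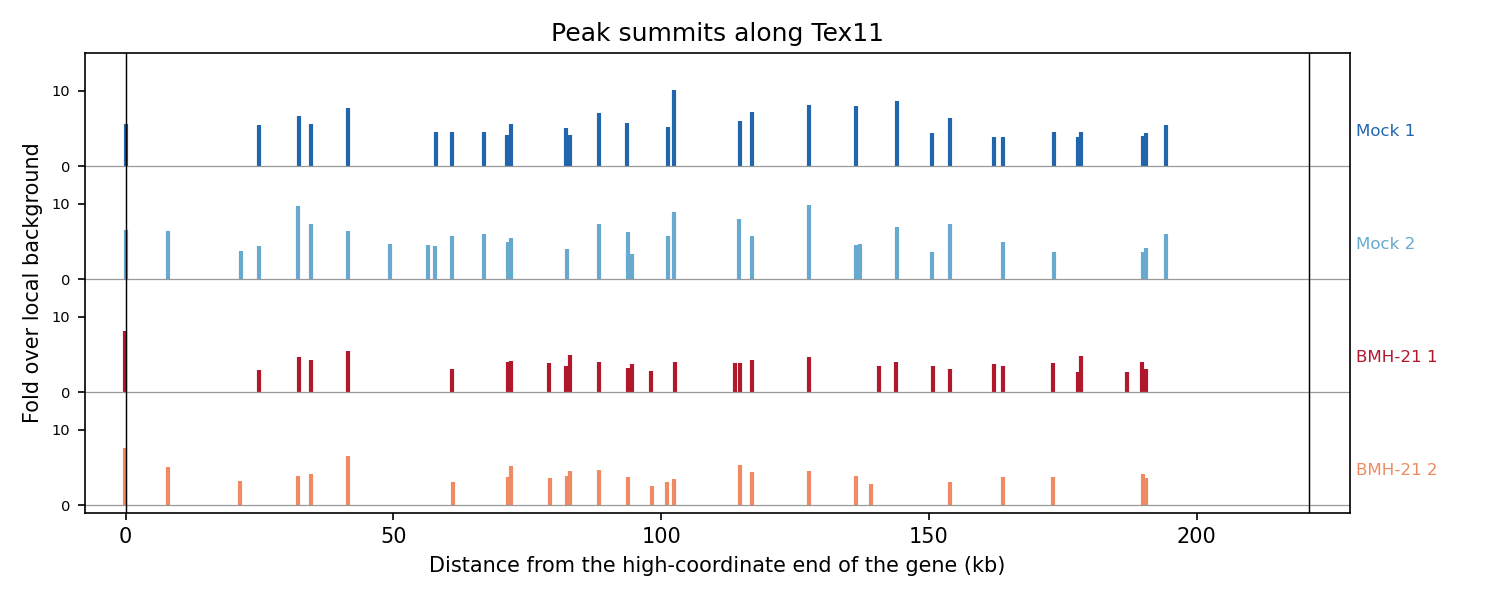
Peak summits along Tex11, with distance from the high-coordinate end in kb on the horizontal axis and the fold over local background as line height, in a row per library; vertical black lines mark the gene ends. Peaks fill the gene in all 4 rows, the inside lines are mostly lower in the BMH-21 rows, and the line at 0 kb is higher there.

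Other genes of crossing over and mismatch repair were taken from a list of 23 symbols, of which 22 were in the annotation (Spo16 was not matched), all on autosomes. Of these, 19 had a gene-end peak in all 4 libraries and none was mock-only or BMH-21-only. Over all protein-coding genes, 57.9% had one in all 4. Of those with one in both mock libraries, 11.5% had none after BMH-21. The 3 listed genes without one in any library, named after their values were seen, were Shoc1, whose product acts with SPO16 on recombination intermediates, Rnf212b and the DNA ligase gene Lig1. The total number of peaks was 67 and 73 under mock conditions, and 30 and 31 with BMH-21, a ratio of means of 0.436 (exact permutation p = 0.33). Beside this, the whole lists held 109230 and 117905 peaks against 51234 and 55459. Inside the genes it was 39 and 44 against 9 and 10, and at the ends 28 and 29 against 21 and 21. Of the 22 genes, 12 had fewer peaks in both BMH-21 than in both mock libraries and none had more, beside 56.3 and 2.36% of autosomal protein-coding genes. With lists of equal length the mean totals were 34.5 and 29.5.

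Exo1, an exonuclease of mismatch repair and crossover resolution, held 1 and 2 peaks for mock, against 1 and 1 for BMH-21. Its end peak had folds of 12.8 and 12.4 against 13.8 and 12.7, and so did not share the low values of Mlh3 after treatment. Msh6, which encodes a mismatch recognition subunit, held 1 peak in each library, with folds of 7.92 and 8.24 against 9.09 and 8.67. Of the 19 genes with an end peak in all 4 libraries, 8 had a lower fold of the strongest end peak in both BMH-21 libraries, 6 a higher one and 5 overlapping values, beside 50.3 and 31.9% lower and higher over all autosomal genes. Among the 8 was Eme1, named after its values were seen, whose product acts with MUS81 as an endonuclease. Its folds were 9.51 and 9.37 against 5.67 and 5.66, which after BMH-21 were close to those of Mlh3.

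By the percentile of the strongest gene-end peak within each list, the gene most like Msh4 among 12678 others was Rabggtb, its neighbour on chromosome 3, with a summed difference of 1.85 percentile points over the 4 libraries. The summit of the Rabggtb peak lay 6.96 to 7.13 kb from that of Msh4. Its folds were 12.1 and 13.4 without and 6.71 and 6.98 with BMH-21, and its local background 8.88 and 8.78 against 14.4 and 13.0 fragments. Similar folds at these 2 adjacent genes follow from the choice by percentile, which ranks the fold, and are not a separate result. The genes most like the others were Smim7 for Msh5 (3.02 points), Gpatch11 for Rnf212 (0.739), Vkorc1 for Ccnb1ip1 (5.01), Tm2d3 for Hfm1 (1.56), Slc47a2 for Mlh3 (2.22) and Rpp30 for Tex11 (4.54). This likeness describes 4 values per gene and says nothing of function.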

How the data were processed

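Libraries were made from pelleted cells by tagmentation and 14 cycles of PCR and read as 150 bp pairs, per the labels' protocols, which name a transposase kit where the design text names one for mRNA. Tools named in the submitters' processing notes are MACS2 2.1.0, Bowtie2, fastp, deepTools and bedtools, and both mm10 and mm39 are named as builds, without roles. Whether duplicates were removed and read ends shifted is not given in the sources used here. Peaks were deposited per library, not pooled. The deposited fold of a peak was read as the ratio of summit pileup to local background, with 1 added to each. The deposited −log10 p and q describe that enrichment (smallest −log10 q 2.01 to 2.09). The deposited score column was not used. None of these is normalised between libraries. Coordinates were taken as mm10, since chromosome 1 peaks reach 195371813, past where mm39 ends for that chromosome, and are given 1-based.

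Pileup and background were recovered from fold and p by the caller's Poisson relation (largest error 0.000799 in −log10 p). An absent peak is one below the caller's threshold. Intervals are exact Clopper-Pearson. Group means were compared by exact two-sided permutation tests. Regions are peaks merged at 1 bp of overlap or more. Python 3.11.15, scipy 1.17.1 and pandas 2.3.3 were used, and the procedures were tested on simulated data. The genes and lists were chosen with earlier results of these data known. Named were all 7 genes with their gene-end peaks and 3 strongest inside peaks (by the mean percentile over the libraries that hold the peak, which favours peaks absent after BMH-21 where percentiles there are lower), Exo1 and Msh6, any other listed gene whose gene-end class differed between libraries (there was none) and the gene most alike to each. Some genes that the rule names are not reported here. Alternatives were −log10 q of at least 5, equal list lengths, 100 bp on either side of the summit, 50% overlap, windows of 500 bp and 2.5 kb, each library left out, and a replicate block. Ordering the start peaks by −log10 q or pileup and dividing pileups by the genome-wide background were added after seeing the data.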

Additional observations from a re-analysis of the deposited data

How the results depend on the processing

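The exact tests of 2 against 2 libraries cannot pass the threshold under any alternative, so only directions and sizes were compared. Of 118 recomputed values, 114 kept their direction or stayed within the interval of the reported one. This tally is a weak measure of stability, because many of the values only repeat the reported ones. The replicate block changes the p alone, so its differences could not move. Peak counts were the same as reported with the stricter overlap and with 100 bp around the summit. The number of genes with a gene-end peak did not differ between the groups under any setting. With lists of equal length the difference of BMH-21 minus mock in Tex11 peaks turned from -2.5 to 6, and the mock-only share of the autosomal member regions was 25% in place of 57.1%. Without each library in turn, the difference ranged from -5 to 0 for Tex11 peaks, from -9.5 to -7.5 for the autosomal members, from -42.5 to -36.5 for the wider list and from 9.03 to 16.1 percentage points for the Tex11 share of all peaks. With 100 bp on either side of the summit the autosomal mock-only share was 75% (9 of 12 regions). Ordered by summit pileup, the mean place of the Mlh3 start peak among the 6 went from 3 to 2, a difference of -1 in place of 4.5 by fold, and that of Msh4 kept its direction. Libraries with the same number did not deviate together (r = 0.021 over 12679 genes between the differences of the 2 groups' libraries), and with a replicate block, swapping libraries only within a number, the smallest p is 0.5, which is also that of the autosomal members (difference -8.5), the wider list (-39.5) and the Tex11 share (12.6 percentage points). Read depth was not used, and weak inside peaks with a fold near 3 lie close to what the caller can detect.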
